A study of Mus musculus with 9 samples.

Results

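The interferon regulatory factors (IRFs) are a family of transcription factors, and the transcripts of 8 of them, Irf1, Irf2, Irf3, Irf4, Irf5, Irf7, Irf8 and Irf9, were followed in mouse basophils that had been activated with cytokines and treated with an inhibitor of phosphodiesterase 4 (PDE4). The members were identified by gene symbol in a table of 35673 genes measured by bulk RNA sequencing. All 8 were among the 21341 genes that passed a filter on low counts. The members, and the related gene lists followed further below, were chosen with earlier results of these data known. Their counts, set beside shares of all genes, therefore only describe these data. Basophils were grown from C57BL/6J WT bone marrow for 7 days with 0.3 ng/mL of interleukin-3 (IL-3) and taken by magnetic sorting for CD49b, and 10000 cells per sample were exposed for 4 hours. The 3 groups, of 3 libraries each, were resting cells (PBS with DMSO as the vehicle), stimulated cells (IL-3 and the alarmin IL-33, each at 10 ng/mL, and DMSO), and difamilast cells, which had both cytokines at those doses and 3 µM of the PDE4 inhibitor difamilast. PDE4 enzymes break down the second messenger cAMP. No sample had difamilast without cytokines. Whether replicates were separate cultures or animals is not said in the labels, and p-values therefore measure no more than how far these samples spread, possibly for technical reasons.

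IRFs share a DNA-binding domain at the amino terminus that recognises GAAA-containing elements, among them the interferon-stimulated response element (ISRE). IRF3 and IRF7 are phosphorylated by the kinases TBK1 and IKK-epsilon after nucleic acid sensing and then switch on type I interferon genes, IRF5 acts downstream of MyD88, and IRF9 carries the signal of the interferon receptor to ISREs. IRF1 activates and IRF2 mostly antagonises an overlapping set of genes, whereas IRF4 and IRF8 bind DNA together with partners such as PU.1 and the BATF-JUN dimers. In the basophil lineage, mice without IRF2 are known for an excess of basophils, and IRF8 is needed in the progenitors from which basophils arise.

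Total counts per library ran from 6261446 to 38098584, and no pair of libraries of a group was alike within sampling noise (chi-square divided by its degrees of freedom, 4.54 to 48.7). Levels are given as TMM-normalised CPM, that is, counts scaled to the effective total of each library. The TMM factors lay at 1.23 to 1.32 in resting, 0.871 to 0.892 in stimulated and 0.851 to 0.916 in difamilast libraries. Small folds against resting cells, such as those of Irf1, Irf2, Irf3 and Irf5, therefore depend on this scaling. Basophil markers were present, with Mcpt8, a basophil protease gene, at 1434 ± 415 CPM (SD, n = 3) in resting cells, and the 12 on the list summed to 7409 to 8425 CPM in resting libraries. Transcripts known from other cells were present too. Lyz2, a lysozyme gene of monocytes and macrophages, lay at 3957 ± 483 CPM, above Mcpt8 and the basophil marker Hdc (1918 ± 377). Cd74, which encodes the MHC class II invariant chain, lay at 1454 ± 190.0, close to Mcpt8 and below Hdc. In bulk samples a transcript cannot be assigned to a cell, and fewer cells of a type and less RNA per cell cannot be told apart.

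Of the 8 genes, 6 rose with IL-3 and IL-33, Irf8 fell and Irf3 did not pass. A gene is called when its adjusted p is under 0.05 in the quasi-likelihood test of edgeR, adjusted by Benjamini-Hochberg over all 21341 tested genes. In that comparison 31.7% of all tested genes were called, 15.3% higher and 16.4% lower. In TMM-normalised CPM, the libraries of the 2 groups did not overlap for 7 of the 8 genes, against 43.7% of all genes tested. The median log2 fold change was 0.78 over the 8 members and 0.06 over all tested genes. Difamilast against vehicle in stimulated cells gave a single call among the members, a fall of Irf4, where 3.44% of all genes were called, 2.21% higher and 1.24% lower. The libraries of these groups did not overlap for Irf2, Irf4 and Irf5, against 24.8% of all genes tested.

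**Figure D1:**
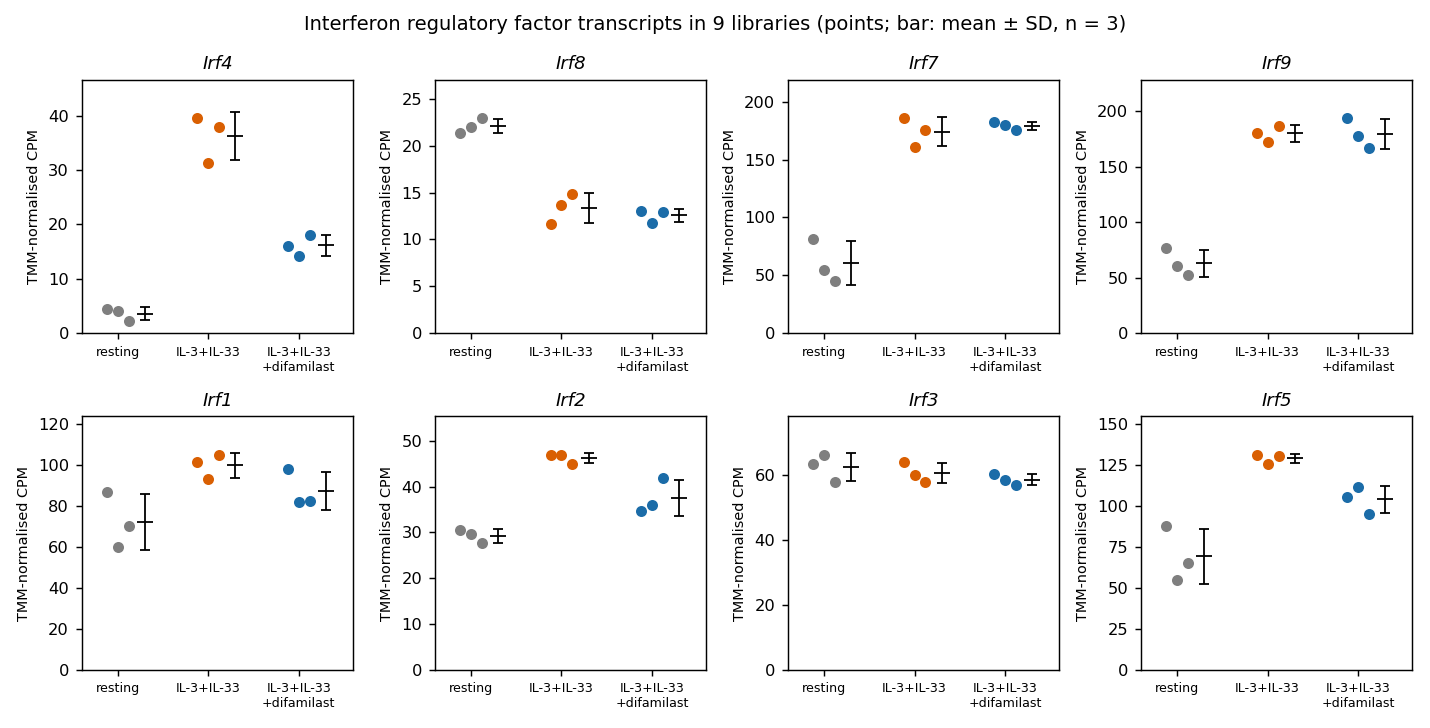
Levels of the 8 members in TMM-normalised CPM (vertical axis from 0) for resting, stimulated and difamilast-treated basophils, with 1 point per library and the mean ± SD beside them (n = 3). Irf4 lay between 31.2 and 39.5 CPM in stimulated libraries, above every resting and every difamilast library, while Irf7 and Irf9 lay at like levels in stimulated and difamilast libraries.

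Irf4, which encodes a factor of lymphoid and dendritic cells that also serves type 2 cytokine programmes, changed most among the members. In resting libraries it was nearly silent, at 4.34, 4.13 and 2.28 CPM (62, 75 and 18 reads). Stimulated libraries held 39.5, 31.2 and 37.9 CPM, and difamilast libraries 16.1, 14.2 and 18.1 CPM. The 3 groups did not overlap, and the difamilast libraries lay between the others. Stimulation raised Irf4 9.67-fold (log2 fold change 3.27 ± 0.20, SE; edgeR adjusted p = 9.16e-09), and 136 of all 21341 tested genes, Irf4 included, had a fold at least as high. Difamilast lowered it 2.24-fold (log2 fold change -1.17 ± 0.17; edgeR adjusted p = 0.000834). The 95% interval of that change ran from -1.54 to -0.80, and the lowest bound among the other 7 members was -0.61, for Irf5. Irf4 has the longest transcripts of the 8 genes (a mean of 4762.5 bases over its annotated forms), and genes of like length had a median log2 fold change of 0.04 with difamilast.

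Irf8, the closest relative of Irf4 and a factor of monocyte, dendritic cell and basophil progenitors, was the single member to fall with stimulation. Resting libraries lay at 21.4, 22.0 and 22.9 CPM, stimulated ones at 11.6, 13.6 and 14.9, and difamilast ones at 13.0, 11.8 and 12.9. Resting libraries stood above the rest, and the stimulated and difamilast libraries overlapped. The fall with stimulation was 1.64-fold (log2 fold change -0.71 ± 0.14, SE; edgeR adjusted p = 0.00126). With difamilast the log2 fold change was -0.10 (edgeR adjusted p = 0.816), with a 95% interval from -0.40 to 0.20. Of 10 monocyte and macrophage markers, 5 fell and 1 rose with stimulation, where 16.4% of all genes were called lower and 15.3% higher. Their summed level was 4193 to 5029 CPM in resting, 3218 to 3309 in stimulated and 3049 to 3273 in difamilast libraries. Most of that sum was Lyz2. It lay at 3957 ± 483 CPM (SD) in resting, 2736 ± 36.3 in stimulated and 2621 ± 87.9 in difamilast cells. Among conventional dendritic cell markers 2 of 8 tested fell and none of the others rose, with sums of 1558 to 1941, 1715 to 1821 and 1890 to 2010 CPM. Cd74 made up most of these sums, at 1454 ± 190.0 CPM (SD) in resting, 1517 ± 56.3 in stimulated and 1698 ± 61.9 in difamilast cells. No marker of either list was at 0 in all libraries, although Flt3, a defining receptor of dendritic cells, lay at 1.22 ± 0.23 CPM in resting cells. The part of these cells in the fall of Irf8 was not tested.

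Because Irf4 and Irf8 are so alike, their ratio within a library, each divided by its transcript length, was followed as well. Resting libraries held 0.0908, 0.0842 and 0.0446 Irf4 transcripts for each of Irf8. Stimulated libraries held 1.52, 1.03 and 1.14, and difamilast libraries 0.555, 0.540 and 0.628. Per length of transcript, the order of the pair crossed with stimulation and crossed back with difamilast, also with the longest transcript of each gene as the length. The crossing back depends on dividing by length. In CPM alone Irf4 lay above Irf8 in every difamilast library, at 16.1, 14.2 and 18.1 against 13.0, 11.8 and 12.9. Whether reads scale with transcript length in these libraries was not tested. The mean log2 ratio rose by 4.12 from resting to stimulated cells and fell by 1.08 from stimulated to difamilast cells, and p was 0.1 for each difference (exact permutation test, two-sided), which is as low as 3 against 3 libraries allow. The levels of the pair overlapped between genes in stimulated libraries, at 7.61 ± 0.92 CPM per kb for Irf4 and 6.26 ± 0.77 for Irf8 (SD, n = 3).

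**Figure D2:**
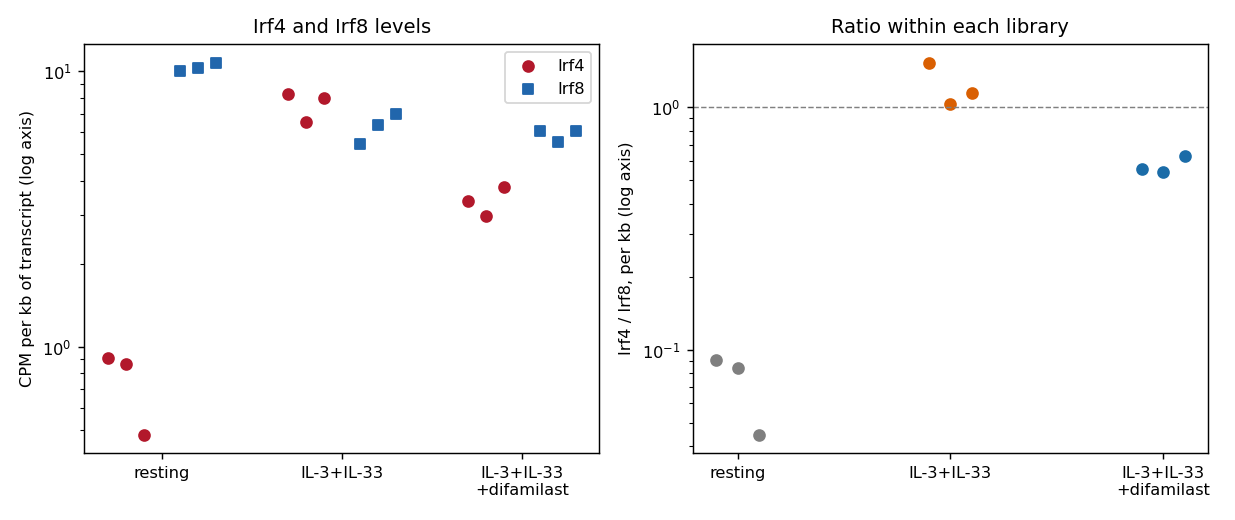
Left, CPM per kb of transcript (log axis) of Irf4 (circles) and Irf8 (squares) in each library of the 3 groups; right, their ratio within each library (log axis), with a dashed line at 1. All 3 stimulated libraries lie above the line, between 1.03 and 1.52, and all resting and difamilast libraries lie below it.

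Irf7 and Irf9, the members most tied to type I interferon signalling, both rose with stimulation, and neither passed the test with difamilast (edgeR adjusted p = 0.938 and 0.991). Irf7, the amplifier of interferon production, lay at 81.6, 54.8 and 45.3 CPM in resting, 186, 161 and 176 in stimulated, and 183, 180 and 176 in difamilast libraries. It rose 2.86-fold with stimulation (log2 fold change 1.52 ± 0.16, SE; edgeR adjusted p = 3.86e-06). Irf9, which encodes a DNA-binding factor of the interferon response, lay at 76.5, 60.1 and 52.7 CPM in resting, 181, 172 and 187 in stimulated, and 194, 177 and 167 in difamilast libraries. Its rise was 2.85-fold (log2 fold change 1.51 ± 0.13; edgeR adjusted p = 3.01e-07). For both genes every stimulated library lay above every resting library, and stimulated and difamilast libraries overlapped. The 95% interval of the log2 fold change with difamilast was -0.29 to 0.38 for Irf7 and -0.27 to 0.26 for Irf9.

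Irf5, Irf2 and Irf1 made smaller rises, and their difamilast libraries lay lower on average than the stimulated ones. Irf5, a factor of myeloid inflammatory responses, lay at 87.8, 55.0 and 65.0 CPM in resting, 131, 125 and 130.2 in stimulated, and 105, 111 and 94.7 in difamilast libraries. Its 3 groups did not overlap, although per unscaled library total its resting libraries overlapped with stimulated and difamilast ones. Stimulation raised it 1.86-fold (log2 fold change 0.90 ± 0.14, SE; edgeR adjusted p = 0.000198). With difamilast its log2 fold change was -0.31 ± 0.14 (edgeR adjusted p = 0.32), and it passed in a fit of these 2 groups alone (adjusted p = 0.0302) and without resting replicate 1 (adjusted p = 0.0332). Irf2 lay at 30.6, 29.7 and 27.6 CPM in resting, 46.9, 46.9 and 45.1 in stimulated, and 34.7, 35.9 and 41.9 in difamilast libraries. Its groups did not overlap either, although per unscaled library total its resting libraries overlapped with stimulated and difamilast ones. It rose 1.58-fold with stimulation (log2 fold change 0.66 ± 0.12; edgeR adjusted p = 0.000488), and its change of -0.30 ± 0.11 with difamilast did not pass (adjusted p = 0.211; no call under any of 17 alternatives).

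Irf1, the activating counterpart of Irf2 and a classic interferon gamma target, lay at 86.9, 59.9 and 69.9 CPM in resting, 101, 93.0 and 105 in stimulated, and 98.0, 81.7 and 82.1 in difamilast libraries. The stimulated libraries stood above the resting ones by a small margin, and the difamilast libraries overlapped with both groups. Per unscaled library total, the resting and stimulated libraries of Irf1 overlapped, so this margin depends on the TMM scaling. The rise was 1.38-fold (log2 fold change 0.46 ± 0.13, SE; edgeR adjusted p = 0.0154), but the call was lost on leaving out resting replicate 2 (adjusted p = 0.108), resting replicate 3 (0.0679), stimulated replicate 1 (0.0768) or stimulated replicate 3 (0.0607). Without resting replicate 2 its log2 fold change was 0.30, and over all alternatives its adjusted p ran from 0.000385 to 0.108. With difamilast the log2 fold change was -0.19 ± 0.13 (adjusted p = 0.57). Irf3, the sensor-activated factor that is known to be present before any stimulus, passed in none of the 3 comparisons and lay at 63.4, 66.1 and 57.9 CPM in resting, 63.8, 60.0 and 57.9 in stimulated, and 60.2, 58.4 and 56.9 in difamilast libraries. All 3 groups overlapped. This overlap depends on the TMM scaling. Per unscaled library total, Irf3 was higher in every resting library than in any stimulated or difamilast library. Its 95% interval was -0.27 to 0.17 for stimulation and -0.27 to 0.17 for difamilast on the log2 scale.

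**Figure D3:**
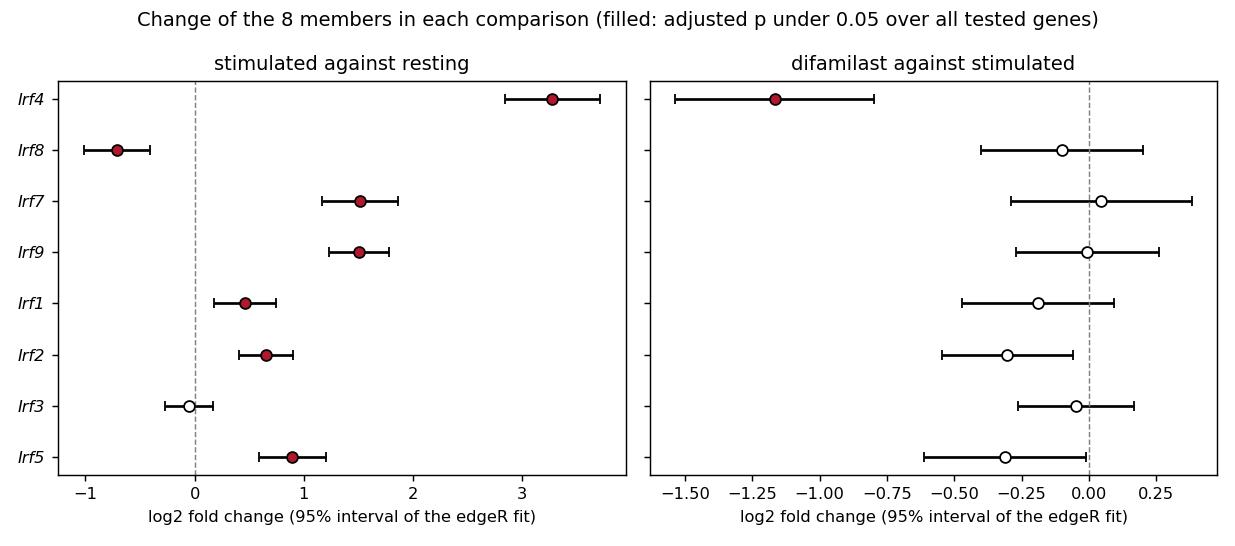
Log2 fold changes of the 8 members (horizontal axes, which differ in scale) with 95% intervals of the edgeR fit, for stimulated against resting (left) and difamilast against stimulated (right); filled points passed an adjusted p of 0.05. With stimulation 7 points are filled, and with difamilast only that of Irf4, at -1.17.

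Per length of transcript, Irf3, Irf1, Irf5, Irf7 and Irf9 led the resting cells, at 36.2 ± 2.43, 34.4 ± 6.49, 33.9 ± 8.23, 30.7 ± 9.54 and 24.4 ± 4.71 CPM per kb (SD, n = 3). Each neighbour in that order overlapped with the next. Irf2 (19.3 ± 1.00), Irf8 (10.4 ± 0.36) and Irf4 (0.752 ± 0.238) followed, each below all libraries of the gene before it. In stimulated cells Irf7 (88.3 ± 6.35) and Irf9 (69.6 ± 2.82) led, then Irf5 (63.1 ± 1.44), Irf1 (47.4 ± 2.86), Irf3 (35.1 ± 1.76) and Irf2 (30.5 ± 0.70), with no overlap between neighbours down to Irf4. In difamilast cells the order of the first 6 was the same, with Irf5 (50.8 ± 4.11) and Irf1 (41.6 ± 4.42) overlapping, and Irf8 (5.88 ± 0.32) lay above Irf4 (3.38 ± 0.41). With the longest annotated transcript as the length, Irf1 and Irf5 came before Irf3 in resting cells, and the order in the other groups was the same.

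Difamilast-treated cells were also set against resting cells, a comparison that shares its libraries with both others. There 6 of the 8 members were called, 5 higher and Irf8 lower, where 32.8% of all genes were called, 16.4% in each direction. In TMM-normalised CPM, the libraries were apart for 6 of the 8, against 42.9% of all genes tested. Irf4 stayed 4.31-fold, Irf7 2.95-fold, Irf9 2.83-fold above resting cells, Irf5 stayed higher by 0.58 on the log2 scale, and Irf8 stayed 1.76-fold below (edgeR adjusted p from 3.17e-07 for Irf9 to 0.00553 for Irf5). Irf2 was 1.28-fold higher (edgeR adjusted p = 0.0297) and passed in 8 of 17 alternatives (adjusted p from 0.025 to 0.123). Among single libraries left out, its call was lost with resting replicates 2 and 3, with stimulated replicate 1 and with difamilast replicates 2 and 3. Irf1 did not pass (log2 fold change 0.27 ± 0.13; adjusted p = 0.134), except without resting replicate 1 (adjusted p = 0.00766). In mean CPM, difamilast-treated cells kept 38.4% of the rise of Irf4 (35.4% to 41.4% with any 1 library left out), 48.4% of that of Irf2 (35.5% to 56.6%), 54.9% of that of Irf1 (35.4% to 65.1%), 58.0% of that of Irf5 (51.7% to 65.6%), 105% of that of Irf7 (99.0% to 110.4%) and 99.4% of that of Irf9 (93.2% to 104.7%). The ranges of Irf1 and Irf2 reached down into that of Irf4. The shares kept depend on the TMM scaling of resting libraries, most of all for Irf1, Irf2 and Irf5.

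The members lie on 6 chromosomes in GRCm38 (GENCODE vM21). Irf4 spans chr13:30749226-30766976, Irf8 chr8:120736358-120756694, Irf7 chr7:141262706-141266481, Irf9 chr14:55603571-55610030, Irf1 chr11:53770014-53778374, Irf2 chr8:46739732-46847458, Irf3 chr7:44997648-45002848 and Irf5 chr6:29526625-29541871. Irf2, Irf4 and Irf8 shared no exonic base with another gene. Irf5 shared 411 of its 2905 exonic bases with Tnpo3 on the opposite strand, and Irf1, Irf3 and Irf7 shared 135, 88 and 45 with Gm17334, Bcl2l12 and Phrf1 on the opposite strand. Irf9 shared 123 with Rnf31 on the same strand. Since the use of strand in counting is not given in the sources used here, reads from those stretches cannot be assigned to 1 gene.

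Promoter windows of 300 bases (250 before to 50 after the start site; RefSeq, GRCm38.p6) were found for all 8 members and searched on both strands for 6 motifs. These were the ISRE core, which is GAAA, any 2 bases and GAAA (in 3.44% of 32851 windows), the ETS-IRF composite element, which is GGAA, any 2 bases and GAAA (2.72%), the STAT element GAS, TTCNNNGAA (8.30%), the NF-kB motif (8.46%), the cAMP response element TGACGTCA (1.79%) and the AP-1 element TGANTCA (7.81%). Irf1, Irf2 and Irf8 held matches, and no window of the other 5 members held these letters. The Irf9 windows, chr14:55603735-55604034 and chr14:55604329-55604628, lie inside the GENCODE span of that gene. The bases before its GENCODE start were therefore not searched. The 4 windows shown are those with matches, and that of Irf4, whose transcript changed most. Matches are in capitals, and in Irf2 the ISRE core and the composite element overlap. The windows are chr11:53769764-53770063 for Irf1, chr8:46739495-46739794 for Irf2, chr13:30748983-30749282 for Irf4 and chr8:120736108-120736407 for Irf8, all on the plus strand.
Irf1: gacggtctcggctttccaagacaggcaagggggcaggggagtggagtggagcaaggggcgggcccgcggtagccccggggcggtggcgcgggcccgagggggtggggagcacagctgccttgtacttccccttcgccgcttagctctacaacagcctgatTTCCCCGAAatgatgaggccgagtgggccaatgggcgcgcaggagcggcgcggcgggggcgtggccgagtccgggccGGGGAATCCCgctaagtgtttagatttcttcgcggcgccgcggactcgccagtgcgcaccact
Irf2: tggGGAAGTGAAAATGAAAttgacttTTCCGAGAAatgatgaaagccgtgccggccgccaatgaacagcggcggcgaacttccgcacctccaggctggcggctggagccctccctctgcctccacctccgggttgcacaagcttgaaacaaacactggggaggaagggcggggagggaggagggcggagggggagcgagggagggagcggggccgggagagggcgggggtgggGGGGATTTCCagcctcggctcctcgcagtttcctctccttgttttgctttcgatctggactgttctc
Irf4: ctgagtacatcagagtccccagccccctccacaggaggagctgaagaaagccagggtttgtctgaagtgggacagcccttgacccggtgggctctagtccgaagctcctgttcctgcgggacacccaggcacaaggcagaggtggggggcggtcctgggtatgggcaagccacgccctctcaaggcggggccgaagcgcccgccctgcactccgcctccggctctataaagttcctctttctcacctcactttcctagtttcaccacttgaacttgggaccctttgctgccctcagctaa
Irf8: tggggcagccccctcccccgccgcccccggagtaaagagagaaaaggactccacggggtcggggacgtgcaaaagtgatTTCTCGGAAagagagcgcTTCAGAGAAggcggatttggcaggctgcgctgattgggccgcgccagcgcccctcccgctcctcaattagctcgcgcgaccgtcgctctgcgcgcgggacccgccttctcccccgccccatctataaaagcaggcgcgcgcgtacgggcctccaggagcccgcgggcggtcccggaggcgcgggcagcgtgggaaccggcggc
The Irf1 window holds a GAS element 90 bases and an NF-kB motif 13 bases before the start site. The Irf8 window holds a pair of GAS elements, 171 and 153 bases before the start site. In Irf2 the composite element, the ISRE core, a GAS element and an NF-kB motif begin 247, 241, 224 and 17 bases before the start. A match is a description of the letters, not a bound site.

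DNA-binding partners of IRF4 and IRF8, with the IRF2-binding proteins, formed a list of 18 genes, all tested. With stimulation 7 rose and 9 fell (31.7% of all genes were called), with a median log2 fold change of -0.43 against 0.06 for all genes. Batf, whose product binds composite elements with IRF4 and JUN proteins, rose 8.31-fold, Jund 3.42-fold and Junb 3.15-fold, while Ikzf3, the Ikaros family gene for Aiolos, fell 3.43-fold (edgeR adjusted p from 4.03e-09 for Jund to 1.66e-06 for Ikzf3). Spi1, which encodes PU.1, lay at 178 ± 31 CPM in resting and 176 ± 10.3 in stimulated libraries (adjusted p = 0.945). With difamilast 4 of the 18 were called, 2 lower and 2 higher, against 3.44% of all genes, and 4 to 6 were called with any 1 library left out.

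Those 4 genes were Batf, Batf3, Ikzf3 and Ets1. Batf lay at 15.6, 25.4 and 25.1 CPM in resting, 184, 182 and 182 in stimulated, and 64.1, 68.8 and 99.4 in difamilast libraries, so that, like Irf4, its difamilast libraries lay between the other groups without overlap. It fell 2.36-fold with difamilast (edgeR adjusted p = 0.000573). Batf3, a BATF family gene known from dendritic cells, lay at 1.47, 2.37 and 0.633 CPM in resting, 8.28, 10.1 and 9.80 in stimulated, and 1.41, 1.17 and 2.85 in difamilast libraries, where resting and difamilast libraries overlapped. It fell 5.33-fold with difamilast (edgeR adjusted p = 0.000377). Ikzf3 moved the other way, at 39.3, 28.1 and 25.2 CPM in resting, 9.61, 9.80 and 7.78 in stimulated, and 21.1, 21.6 and 19.1 in difamilast libraries, a 2.29-fold rise with difamilast (edgeR adjusted p = 0.000716). Ets1, which encodes a founding ETS factor, rose 1.93-fold with difamilast, to 279 ± 6.43 from 144 ± 5.19 CPM (edgeR adjusted p = 3.24e-05), and its smaller fall with stimulation (edgeR adjusted p = 0.0198) was lost without stimulated replicate 1 (adjusted p = 0.0576) or 2 (0.0707).

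**Figure D4:**
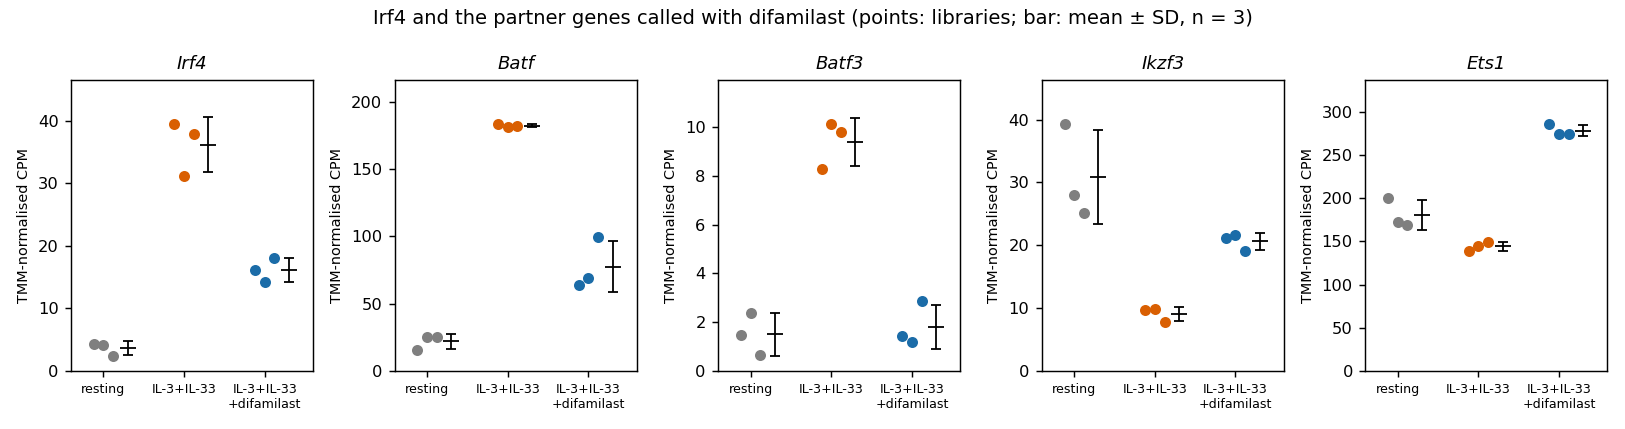
TMM-normalised CPM (vertical axes from 0) of Irf4 and of the 4 partner genes called with difamilast, with 1 point per library and the mean ± SD beside them (n = 3). Irf4 and Batf are highest in stimulated libraries and intermediate with difamilast, Batf3 is low in both other groups, and Ikzf3 is lowest in stimulated libraries.

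Upstream of IRF3, IRF5 and IRF7, a list of 19 nucleic acid sensors, adaptors and kinases was followed. Stimulation raised 8 and lowered 5 of them, where 15.3% of all genes were called higher and 16.4% lower, and their median log2 fold change was 0.17 against 0.06 for all genes. The kinases that phosphorylate IRF3 and IRF7 both rose, Ikbke 6.42-fold (31.6 ± 4.82 to 203 ± 9.78 CPM) and Tbk1 1.66-fold, as did the cytosolic RNA sensors Ddx58 (3.10-fold) and Ifih1 (2.20-fold; edgeR adjusted p from 2.3e-10 for Ikbke to 2.24e-05 for Tbk1). Among the genes that fell were Tlr9, the endosomal DNA sensor (3.11-fold), Unc93b1, the chaperone of endosomal receptors (2.15-fold), and Mavs, the adaptor of the RNA sensors (2.09-fold; edgeR adjusted p from 0.000267 to 0.00178); these 3 were chosen after their values were seen. With difamilast 1 of the 19 was called, a share near the 3.44% of all genes: Tlr4, the lipopolysaccharide receptor, rose 2.45-fold, from 14.1 ± 2.28 to 34.9 ± 1.58 CPM (edgeR adjusted p = 0.000287). The count became 3 without resting replicate 1 and lay between 1 and 3 with any 1 library left out.

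Interferons, their receptors and signalling genes made a list of 14, of which 12 were tested. The interferon beta gene Ifnb1 stayed near the limit of detection, at 0.228 ± 0.132 CPM in resting and 0.605 ± 0.054 in stimulated libraries (edgeR adjusted p = 0.229), and Ifng did not pass the filter. With stimulation 8 rose and 2 fell (15.3% and 16.4% of all genes), and the median log2 fold change was 0.79 against 0.06 for all genes. Socs1, a feedback inhibitor of JAK kinases, rose 9.61-fold, Jak2 5.56-fold and Ifngr2 2.64-fold, while the other chain of the interferon gamma receptor, Ifngr1, fell 2.82-fold (edgeR adjusted p from 6.54e-11 for Socs1 to 1.86e-07 for Ifngr2). With difamilast 2 of the 12 were called, where 3.44% of all genes were. These were the receptor chains, each moving the opposite way, with Ifngr1 1.37-fold higher and Ifngr2 1.46-fold lower (edgeR adjusted p = 0.0169 and 0.0108). Neither of these calls held without stimulated replicate 1 or 2 or difamilast replicate 1 or 2, and Ifngr1 was lost without stimulated replicate 3 too (adjusted p up to 0.135 and 0.0903).

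Downstream, 24 of 25 genes known to be driven through ISREs rose with stimulation, where 15.3% of all genes were called higher; the median log2 fold change was 1.39. Isg20, an exonuclease gene, rose 6.11-fold, Parp14 3.95-fold, Trim30a 3.79-fold and Rtp4 3.69-fold (edgeR adjusted p from 5.56e-09 for Trim30a to 8.15e-08 for Parp14). With difamilast 4 of the 25 fell: Ifit2 (2.10-fold), Ifit3 (1.89-fold) and Ifit3b (1.98-fold), of a family that binds foreign RNA, and Mx1 (1.88-fold), an antiviral GTPase gene (edgeR adjusted p from 0.008 to 0.0191; 1.24% of all genes were called lower). The median log2 fold change of the list was -0.21 with difamilast, and 21 of its genes did not pass. The count rested on single libraries: none of the 25 was called without stimulated replicate 1 or difamilast replicate 2, 1 without difamilast replicate 1, 2 without stimulated replicate 2 or 3, and 9 without difamilast replicate 3. Ifit3 and Ifit3b are close relatives whose reads the authors' counting could split, so their separate values are uncertain.

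Immunoproteasome, MHC class I loading and interferon-inducible GTPase genes, with Cd274, Casp1 and Il15, genes known to be driven by IRF1, formed a list of 20. Stimulation raised 18 and lowered 1, Il15 (3.24-fold), where 15.3% of all genes were called higher and 16.4% lower. The median log2 fold change was 1.43 against 0.06 for all genes. The guanylate-binding protein genes Gbp2, Gbp5 and Gbp7 rose 12.1-fold, 9.79-fold and 7.66-fold, and Cd274, which encodes the checkpoint ligand PD-L1, 4.08-fold (edgeR adjusted p from 6.9e-12 for Gbp2 to 1.06e-09 for Cd274). Gbp genes are closely related, so reads may be split between them. With difamilast 4 of the 20 fell, against 1.24% of all genes: Psmb10 (1.80-fold), Psmb8 (1.51-fold), Psme2 (1.80-fold) and Gbp2 (1.42-fold; edgeR adjusted p from 0.0019 for Psmb10 to 0.0272 for Psme2), with a median log2 fold change of -0.29. Their number was 2 without stimulated replicate 1 or 3 or difamilast replicate 1, 1 without difamilast replicate 2, 8 without resting replicate 1 and 7 without difamilast replicate 3. Psmb10 passed in all 17 alternatives.

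**Figure D5:**
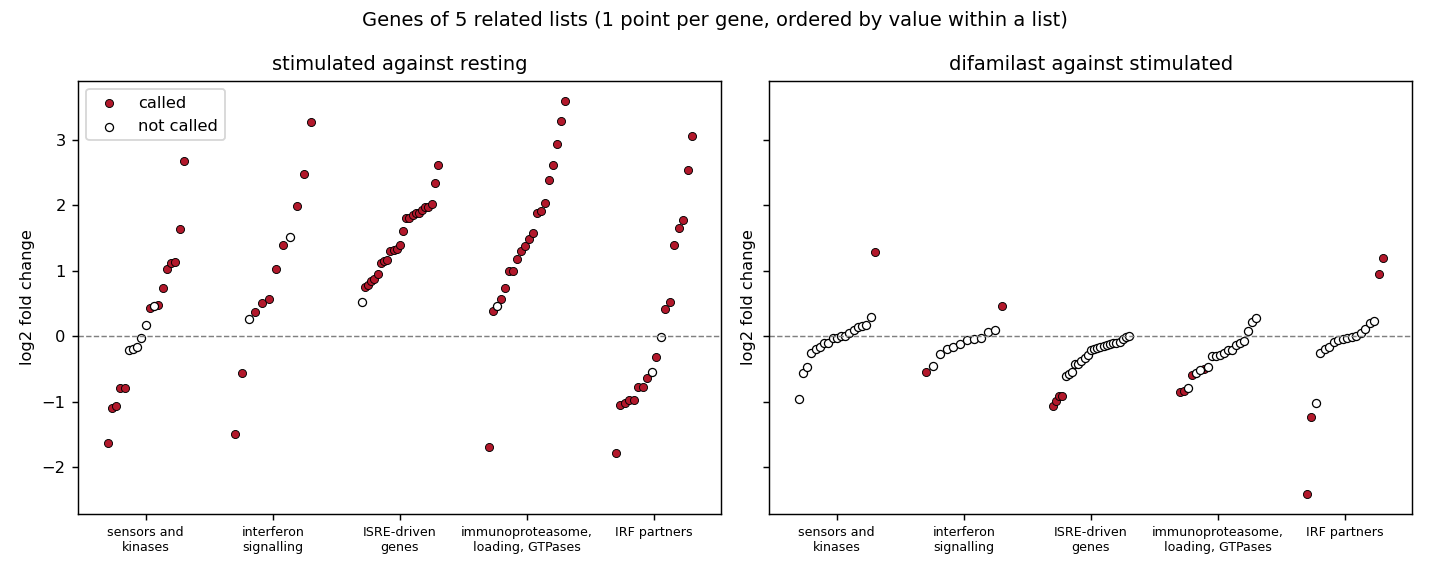
Log2 fold changes (vertical axis) of the tested genes of the 5 related lists, 1 point per gene ordered by value within its list, for stimulated against resting (left) and difamilast against stimulated (right); filled points were called. On the left 24 of 25 ISRE-driven genes are filled and above 0, and on the right 4 of them are filled and below 0.

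Genes whose pattern over the 9 libraries was most like that of a member were found among 8112 other genes averaging at least 10 CPM. Likeness was the root mean square difference in log2(CPM + 1), each gene centred on its own mean. Nearest to Irf4 were AI506816 (0.21 log2 units) and Rsph3b (0.25), which went from 76.0 to 566 to 327 CPM and from 18.9 to 149 to 79.2 CPM in resting, stimulated and difamilast cells. Irf8 lay nearest to Mxd4 (0.072), which encodes a MYC antagonist, and to the calcium channel gene Itpr2 (0.081). Irf7 and Irf9 were both nearest to Fes, a tyrosine kinase gene (0.12 and 0.069), and differed from each other by 0.098. Their next genes were Parp9 (0.13) for Irf7 and Emp1 (0.084) for Irf9. Irf2 lay near the Fc receptor gene Fcgr1 (0.048) and Zeb2 (0.071), Irf5 near Rhbdf2 (0.074) and Lrp12 (0.080), and Irf1 near Ehd4 (0.082) and Entr1 (0.087). These likenesses rest on 9 libraries in 3 groups and describe them only.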

How the data were processed

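Per the labels' protocols, mRNA was bound to beads carrying oligo-dT, amplified as whole transcriptome by TAS-Seq and sequenced after fragmentation; no molecular identifiers are mentioned, so reads may include amplification copies. The authors deposited raw read counts per gene symbol for 9 libraries. GRCm38, Bowtie2 2.4.5 and cutadapt 4.1 are named in the submitters' processing notes; the counting tool is not given in the sources used here.

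Groups came from sample titles. Counts were tested with edgeR 4.0.16 (R 4.3.3; TMM, filterByExpr with minimum count 10 and minimum total 15, robust quasi-likelihood) in 1 fit of 9 libraries with 6 residual degrees of freedom, adjusted over 21341 genes. Standard errors are the log2 fold change divided by the root of the F statistic, and 95% intervals use the t distribution. The edgeR fit was tested on simulated counts with planted changes. For difamilast against stimulated it recovered 23.9% of 1.5-fold, 64.2% of 2-fold and 97.0% of 4-fold changes. For stimulated against resting the shares were 32.8%, 61.2% and 90.9%. A gene that was not called may therefore still have changed by a small fold.

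CPM per kb used the mean length of a gene's transcripts in the basic GENCODE vM21 set. Of tested genes, 96.8% had a length. Alternatives were RLE scaling, DESeq2 1.42.0, the 2 groups alone, no filter, replicate number as a block, limma-voom 3.58.1, removal of the transcript length trend (lowess span 0.3), thinning to the shallowest total, and each library left out. Named genes were the 8 members, up to 4 called genes of smallest p per list in each of the first 2 comparisons, the 2 most like each called member, and abundant cell markers. Spi1, Ifnb1, Ifng, Il15, Flt3, Siglech, Tlr9, Unc93b1 and Mavs were named outside this rule. The members and the 5 gene lists were chosen with earlier results of these data known. Values of 1 list gene are not reported here. Of the 9 lists of cell markers, those of plasmacytoid dendritic cells, B cells, NK and T cells, mast cells, neutrophils and progenitors were also measured.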

Additional observations from a re-analysis of the deposited data

How the results depend on the processing

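Every call of Irf2, Irf4, Irf5, Irf7, Irf8 and Irf9 with stimulation, and that of Irf4 with difamilast, was made under all 17 alternatives. With any 1 library left out, 6 to 7 members were called for stimulation, 1 to 2 for difamilast against stimulated and 5 to 7 for difamilast against resting. The lists gave 12 to 13 sensor, 9 to 11 signalling, 22 to 24 ISRE, 17 to 20 immunoproteasome and 15 to 17 partner genes for stimulation, and 1 to 3, 0 to 3, 0 to 9, 1 to 8 and 4 to 6 for difamilast against stimulated. The Irf4 to Irf8 log2 ratio then differed by 3.80 to 4.31 for stimulation, by -1.20 to -0.92 for difamilast against stimulated and by 2.71 to 3.23 for difamilast against resting. In a fit of the 2 groups alone, difamilast against stimulated gave 2 members, 2 sensors and 10 immunoproteasome list genes; without a filter on low counts, 2 sensors and 8 immunoproteasome list genes; with the length trend removed, 7 of the latter. After thinning, the Irf4 to Irf8 log2 ratio differed by -1.38 between difamilast and stimulated libraries. The cause was not tested. Same-numbered libraries did not deviate together (correlations from -0.40 to 0.42), so the numbers were not taken as pairs; with the replicate block 7, 1 and 5 members were called in the 3 comparisons, the lost call being that of Irf2 in difamilast against resting. Depth limits Irf4 in resting cells, where 18 reads were counted in the shallowest library.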

Other observations

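Other cell types in which IRF4 or IRF8 is known to be prominent were measured by their markers in the same libraries. B cell markers summed to 42.5 to 51.2 CPM in resting, 43.9 to 50.8 in stimulated and 40.6 to 46.9 in difamilast libraries. With stimulation 1 of 6 rose, where 15.3% of all genes were called higher. NK and T cell markers summed to 9.37 to 11.7, 11.7 to 13.5 and 10.8 to 14.2 CPM, with 1 of 6 tested higher with stimulation, against the same 15.3%. Plasmacytoid dendritic cell markers summed to 89.0 to 112, 158 to 192 and 104 to 168 CPM, most of it from Bst2, which is itself an interferon-stimulated gene (54.5 ± 14.9, 134 ± 17.0 and 90.5 ± 31.2 CPM, SD, n = 3), whereas Siglech, a defining marker of those cells, lay at 1.42 ± 0.64, 1.42 ± 1.00 and 0.94 ± 0.25 CPM. Basophil markers summed to 7409 to 8425, 12639 to 13497 and 14436 to 15014 CPM. Of the 12, 7 rose and 2 fell with stimulation, where 15.3% of all genes were called higher and 16.4% lower. Mast cell markers summed to 485 to 801, 762 to 829 and 706 to 730.1 CPM, neutrophil markers to 89.2 to 119, 90.1 to 108 and 63.8 to 121, and progenitor markers to 86.5 to 98.7, 126 to 127 and 125 to 130. The part of these cells in the changes of the IRF genes was not tested.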
